A study of Homo sapiens with 36 samples.

Results

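The 30 genes described here make and regulate cholesterol and fatty acids, and their transcripts were followed under SHP1705, a proteasome inhibitor or the 2 together in MDA-MB-231, a line of triple-negative breast cancer cells of human origin. The genes were set by a list of names, and all 30 were found among the 54583 genes of each deposited count table. By role, 7 genes encode enzymes from acetyl-CoA to farnesyl diphosphate, called the mevalonate steps, and 11 encode enzymes from squalene to cholesterol. Another 4 genes encode SREBP transcription factors and their regulators, 7 encode enzymes of fatty acid synthesis and desaturation, and STARD4 encodes a carrier of cholesterol between membranes. All 30 passed the filter on low counts in all 3 tables and were tested in every comparison.

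Cells make cholesterol from acetyl-CoA through mevalonate and squalene, and they make fatty acids from the same acetyl-CoA. Both branches are under the SREBP factors, which are held in the endoplasmic reticulum by SCAP and INSIG proteins while sterols are plentiful and are cut and released to the nucleus when sterols run low. INSIG1 and enzymes of the sterol branch are themselves degraded through ubiquitin and the proteasome, and in liver many of these genes are rhythmic over the day.

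The 36 libraries were polyA RNA-seq of cells in RPMI-1640 medium with fetal bovine serum, and every drug was added from a stock in DMSO. SHP1705 stabilizes cryptochrome, a repressor protein of the circadian clock, and MG132 and carfilzomib block the proteasome, MG132 reversibly and carfilzomib irreversibly. Each of 3 sets held 4 groups of 3 libraries, namely the combination of SHP1705 at 10 µM with the inhibitor, the inhibitor alone, SHP1705 alone at 10 µM and DMSO alone. The inhibitor was MG132 at 100 nM for 8 h in the first set and carfilzomib at 10 nM in the others, for 8 h in the second and for 24 h in the third. MG132 and carfilzomib differed in dose, so the sets stand side by side without a test between the inhibitors. All libraries come from 1 cell line, and the submitters' design notes state 3 independent experiments without saying whether those are the replicates or the sets. The p-values therefore reflect how these libraries varied, which may be biological or technical. In bulk RNA, fewer cells of a type and less RNA per cell cannot be told apart, and every value is relative to the other genes of its library.

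Depth was 34200000 to 39300000 counts per library with MG132. With carfilzomib it was 17800000 to 27700000 counts at 8 h and 18900000 to 34000000 counts at 24 h. All 5 markers of the line (VIM, CD44, AXL, CAV1 and TGFBI) averaged above 1 CPM in every group, CPM being the gene's counts scaled to a common library total. POSTN, a gene of fibroblasts that this line should lack, was at 98.3, 222 and 242 CPM in the 3 libraries with SHP1705 and MG132. It was at 33.6, 0.161 and 173 CPM with MG132 alone, at 0.267, 28.2 and 29.4 CPM with SHP1705 alone and at 0.110 to 0.255 CPM in DMSO. Over 7 fibroblast genes, the summed level in that set ran from 122 to 279 CPM in the combination, 14.9 to 202 CPM with MG132, 14.9 to 50.2 CPM with SHP1705 and 14.98 to 15.9 CPM in DMSO. In the combination POSTN made up most of that sum. By raw counts, CDH2 (191, 518 and 521 against 61, 44 and 36 in DMSO) and COL1A1 (232, 337 and 378 against 223, 187 and 170) were higher there too. COL1A2 (223, 224 and 237 against 261, 287 and 294) and LUM (37, 31 and 56 against 57, 31 and 35) showed no such rise, and COL3A1 and DCN had few counts. The part of this RNA in the results of the MG132 set was not tested. In the carfilzomib set at 8 h, several libraries went against their labels in HSPA1A, a heat shock gene, and PER3, a clock gene, and that set is therefore given library by library after the other sets.

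The first comparison asked what SHP1705 and MG132 together did to these genes within 8 h. The genes did not move as a block: the HMG-CoA synthase gene and the sterol carrier gene were higher, while genes next to them in the pathway, the SREBP-1 gene and desaturase and elongase genes were lower. Of the 30 genes, 10 were higher and 15 lower in the combination than in DMSO, by edgeR's quasi-likelihood test at an adjusted p under 0.05. Among all 16591 genes tested, 29.2% were higher and 29.7% lower. The median log2 fold change was -0.08 over the 30 genes and -0.01 over all genes.

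HMGCS1, the enzyme that condenses acetyl groups to HMG-CoA, had 73.5, 77.5 and 69.8 CPM in the combination, 34.1, 37.3 and 35.2 CPM with MG132, 30.6, 32.1 and 30.7 CPM with SHP1705 and 32.4, 32.2 and 30.6 CPM in DMSO. All 3 combination libraries thus lay above the other 9, and the combination was 2.32-fold higher than DMSO (log2 fold change 1.21 ± 0.05, SE; edgeR quasi-likelihood, Benjamini-Hochberg adjusted p = 4.67e-14). MVK, the mevalonate kinase, went the other way, at 11.1, 9.98 and 11.5 CPM in the combination, 19.9, 19.3 and 18.9 CPM with MG132, 18.5, 18.4 and 16.4 CPM with SHP1705 and 18.5, 21.2 and 19.3 CPM in DMSO. The combination libraries lay below all others, with a log2 fold change of -0.85 ± 0.07 against DMSO. PMVK, which adds the next phosphate, fell by 0.45 on the log2 scale, and ACAT2, which makes acetoacetyl-CoA, fell by 0.48. MVD and IDI1, which make and isomerize isopentenyl diphosphate, rose by 0.37 ± 0.07 and 0.27 ± 0.04. FDPS, the farnesyl diphosphate synthase, was at -0.11 ± 0.04, and its call was lost with relative log expression factors, with DESeq2 and without DMSO replicate 1 or 2 or combination replicate 3 (adjusted p of 0.0543 to 0.197, by edgeR or DESeq2). In all, 3 of the 7 mevalonate genes rose and 4 fell.

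Of the 11 genes from squalene to cholesterol, 3 rose and 5 fell in the combination against DMSO. HSD17B7, a sterol ketone reductase, averaged 7.87 ± 0.313 CPM in the combination and 4.96 ± 0.488 CPM in DMSO (SD, n = 3 each), a log2 fold change of 0.67 ± 0.12 (SE). SQLE, the squalene epoxidase, rose by 0.30 ± 0.06, and NSDHL, a demethylating sterol dehydrogenase, rose by 0.27 ± 0.06. LSS, which closes the first sterol ring system, was at 206, 193 and 193 CPM in the combination, 261, 258 and 266 CPM with MG132, 252, 255 and 239 CPM with SHP1705 and 263, 258 and 263 CPM in DMSO. Its combination libraries lay below the other 9 (log2 fold change -0.40 ± 0.03 against DMSO). The sterol reductase gene TM7SF2 fell by 0.52, the isomerase gene EBP by 0.32, the squalene synthase gene FDFT1 by 0.17 and DHCR7, whose enzyme completes cholesterol in the last step of its route, by 0.11. CYP51A1, the lanosterol demethylase, was at -0.04 ± 0.04, MSMO1, a methyl oxidase, at 0.08 ± 0.04 and SC5D, a sterol desaturase, at 0.10 ± 0.05, none of them called.

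The genes of the SREBP factors moved apart in the same comparison. SREBF1, whose SREBP-1c product drives fatty acid genes, was at 35.4, 35.4 and 34.01 CPM in the combination, 57.7, 50.9 and 57.9 CPM with MG132, 48.7, 53.0 and 51.5 CPM with SHP1705 and 55.8, 56.0 and 58.9 CPM in DMSO. SREBF2, whose product drives cholesterol genes, was at 103, 105 and 97.1 CPM in the combination and at 87.6, 85.5 and 85.7 CPM in DMSO. Against DMSO the log2 fold change was thus -0.70 ± 0.05 for SREBF1 and 0.24 ± 0.04 for SREBF2, with no overlap of the groups for either gene. The groups did not overlap for 63.5% of all genes in this contrast. SCAP, the escort of both factors, fell by 0.22. INSIG1, the anchor that holds SCAP back, was at 0.13 ± 0.05, and that call was lost without the filter on low counts, without DMSO replicate 1 or 3 or combination replicate 1 or 2, and without the 4 libraries outside the combination that held POSTN (adjusted p of 0.0524 to 0.182, edgeR).

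Among the 7 fatty acid genes, 4 fell and 1 rose in the combination against DMSO. ELOVL6, the elongase that turns palmitate into stearate, was at 97.4, 95.1 and 96.6 CPM in the combination, 157, 160 and 156 CPM with MG132, 159, 154 and 160 CPM with SHP1705 and 160, 153 and 149 CPM in DMSO. Its combination libraries were the lowest of the set (log2 fold change -0.68 ± 0.03 against DMSO, adjusted p = 1.01e-12 by edgeR). FADS1 and FADS2, neighbouring genes of the fatty acid desaturases for polyunsaturated chains, fell by 0.41 and 0.34, and ACACA, the acetyl-CoA carboxylase, fell by 0.14. SCD, the stearoyl-CoA desaturase, rose by 0.11 ± 0.03, without a call when DMSO replicate 1 or 3 or combination replicate 1 was left out (adjusted p of 0.0526 to 0.0884, edgeR). ACLY, which supplies cytosolic acetyl-CoA, was at 0.05 ± 0.02 and FASN, the fatty acid synthase, at 0.06 ± 0.03, neither called. STARD4 had 18.5, 18.2 and 17.8 CPM in the combination, 13.1, 11.3 and 10.9 CPM with MG132, 13.2, 11.3 and 11.9 CPM with SHP1705 and 10.9, 9.80 and 13.4 CPM in DMSO. It was 1.60-fold higher in the combination than in DMSO (log2 fold change 0.67 ± 0.10), and its combination libraries lay above all 9 others.

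**Figure D1:**
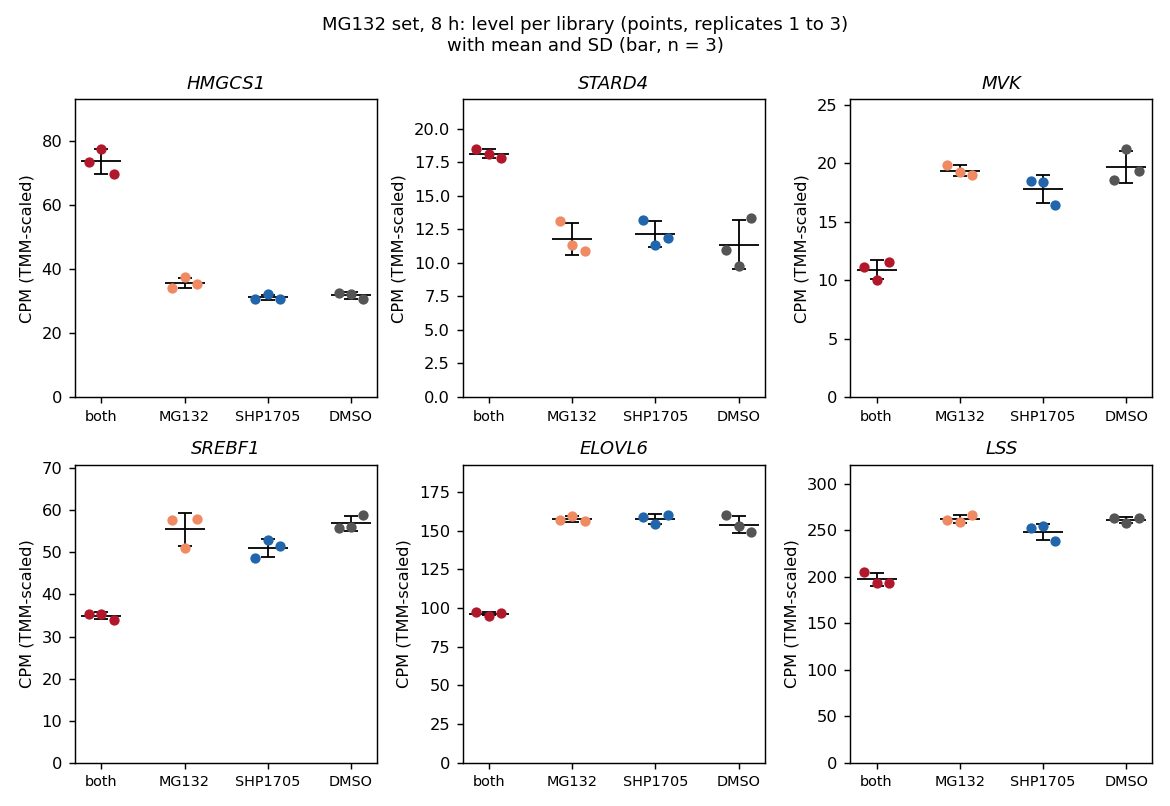
Levels of 6 genes in the MG132 set, in CPM on the vertical axis, with 1 point per library, the mean as a bar and the SD as whiskers (n = 3), for the combination ("both"), MG132, SHP1705 and DMSO. HMGCS1 and STARD4 lie above the other 3 groups in the combination, at 69.8 CPM or more and 17.8 CPM or more, while MVK, SREBF1, ELOVL6 and LSS lie below them.

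The change brought by SHP1705 in cells that also had MG132 was taken from the combination over MG132 alone, a contrast that uses no DMSO library. In the combination, 8 of the 30 genes were higher and 14 lower than with MG132 alone, against 28.2% and 28.9% of all genes. HMGCS1 rose by 1.05 ± 0.05 (SE, log2) and STARD4 by 0.63 ± 0.10, while MVK fell by 0.83, ELOVL6 by 0.71 and SREBF1 by 0.67. FDPS, INSIG1 and SCD were not called here, at -0.08 ± 0.04, 0.03 ± 0.05 and -0.05 ± 0.03. MG132 alone had no called gene among the 30 and none among all 16591 (0%) by edgeR. DESeq2 called 1 of the 30 and 77 of all genes. An unadjusted p under 0.05 was reached by 3 of the 30, a count without its share of all genes and not read as a result. The highest log2 fold change with MG132 alone was 0.16 ± 0.05 for HMGCS1 (adjusted p = 0.265), and SCD followed at 0.15 ± 0.03 (adjusted p = 0.172).

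With SHP1705 alone for 8 h, 1 of the 30 genes was higher and 0 lower than in DMSO by edgeR, against 3.45% and 4.08% of all genes. Those shares rest on 1249 called genes, which became 619 to 825 when SHP1705 replicate 1 or 2 or any DMSO replicate was left out. An unadjusted p under 0.05 was reached by 5 of the 30. The share of all genes at that level is not given here, so the count is not read as a result. The called gene was SCD, at 360, 379 and 355 CPM with SHP1705 and 327, 342 and 333 CPM in DMSO (log2 fold change 0.12 ± 0.03, adjusted p = 0.0299 by edgeR). The groups did not overlap, which held for 25.9% of all genes in this contrast. The SCD call was lost without DMSO replicate 1 or 3 or SHP1705 replicate 1 or 2 (adjusted p of 0.0513 or more, edgeR). It was also lost without the 4 libraries outside the combination that held POSTN. INSIG1 (0.15 ± 0.05, adjusted p = 0.0541) and SREBF1 (-0.16 ± 0.05, adjusted p = 0.0613) came next without passing the test by edgeR.

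The interaction asked whether the combination departed from the sum of the single effects on the log2 scale. It was positive for 6 genes and negative for 14, against 24.7% and 24.2% of all genes, with a median of -0.14 over the 30 genes and -0.01 over all. The positive terms were those of HMGCS1 (1.08 ± 0.07), HSD17B7 (0.67 ± 0.17), STARD4 (0.53 ± 0.14), NSDHL (0.34 ± 0.08), MVD (0.30 ± 0.10) and IDI1 (0.22 ± 0.06). The most negative were those of ELOVL6 (-0.75 ± 0.05), MVK (-0.69 ± 0.10) and SREBF1 (-0.51 ± 0.07). All 3 combination libraries held POSTN, so no fit could leave out every library with it. Without the other 4 that held it, MG132 and SHP1705 keep 1 library each, which is assumed to vary like the other groups. The interactions that lost their call there were those of STARD4 (adjusted p = 0.0707, edgeR), SCD (0.0954), HSD17B7 (0.123), IDI1 (0.162), FDFT1 (0.165) and SCAP (0.304).

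Other lipid genes of the same cells were counted beside the 30, to be read against the 29.2% of all genes that were higher and the 29.7% that were lower in this contrast. Of 20 further genes under SREBP or tied to it, 10 rose and 7 fell in the combination against DMSO, among them NPC1, the lysosomal cholesterol exporter (0.84 ± 0.04), ME1, which supplies NADPH (1.07 ± 0.05), and MBTPS2, a protease that cuts SREBP (-0.48 ± 0.05). Of 10 LXR targets and cholesterol export genes, 1 rose and 4 fell, including the exporter ABCA1 (-0.76 ± 0.05) and the LXR-alpha gene NR1H3 (-1.01 ± 0.10). Lipid storage and elongation genes rose in 5 and fell in 8 of 17 cases, with the elongase ELOVL5 at 0.95 ± 0.03. All 11 fatty acid oxidation genes passed the test, 6 higher and 5 lower, with the carnitine transferase CPT2 at -0.87 ± 0.09. Of 9 genes that mark sterol enzymes and INSIG for degradation, 5 rose and 1 fell, led by VCP, the extraction ATPase (1.27 ± 0.03), and the ubiquitin ligase MARCHF6 (0.71 ± 0.04). The combination itself was seen in HSPA1A (log2 fold change 6.08 ± 0.13 against DMSO) and PER3 (-1.66 ± 0.10). HSPA1A had 1139074, 1257090 and 1320448 raw counts in the combination, but 24197, 22878 and 37293 with MG132 alone. DMSO libraries had 20944, 22268 and 22117. The combination thus differed from MG132 alone in this heat shock gene too. The part of that difference in the changes of the 30 genes, also in the interaction, was not tested.

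Promoters of 7 genes are shown to set the letters upstream of genes that moved apart beside each other. The first 4 genes were higher in the combination of the MG132 set than in DMSO, and the last 3 were lower. The call of INSIG1 was lost under 6 alternatives, and this gene was not called against MG132 alone. Each line holds the 180 bases before the outermost annotated gene start, from RefSeq on GRCh38.p14, 5′ to 3′ along the gene. The genes that follow each stretch lie at chr5:43287470-43313412 (HMGCS1), chr5:111496033-111512535 (STARD4), chr22:41833105-41907305 (SREBF2), chr7:155297878-155310235 (INSIG1), chr21:46188446-46228774 (LSS), chr17:17811334-17836986 (SREBF1) and chr11:65111872-65116230 (TM7SF2). Capitals mark a CCAAT box (CCAAT, or ATTGG where it lies on the other strand), an E-box (CACGTG) or a sterol regulatory element (TCACNCCAC).
HMGCS1 (chr5:43313413-43313592, minus strand): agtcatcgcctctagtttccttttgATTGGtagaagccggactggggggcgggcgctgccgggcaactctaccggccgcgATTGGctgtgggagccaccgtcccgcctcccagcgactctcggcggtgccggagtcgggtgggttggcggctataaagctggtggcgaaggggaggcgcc
STARD4 (chr5:111512536-111512715, minus strand): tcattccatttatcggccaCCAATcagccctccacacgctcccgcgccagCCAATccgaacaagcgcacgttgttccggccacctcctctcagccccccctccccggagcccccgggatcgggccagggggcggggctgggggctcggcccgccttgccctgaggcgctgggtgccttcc
SREBF2 (chr22:41832925-41833104, plus strand): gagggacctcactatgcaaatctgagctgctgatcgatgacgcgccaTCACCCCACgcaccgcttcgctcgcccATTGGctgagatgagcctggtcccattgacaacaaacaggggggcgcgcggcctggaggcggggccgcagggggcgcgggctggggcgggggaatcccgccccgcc
INSIG1 (chr7:155297698-155297877, plus strand): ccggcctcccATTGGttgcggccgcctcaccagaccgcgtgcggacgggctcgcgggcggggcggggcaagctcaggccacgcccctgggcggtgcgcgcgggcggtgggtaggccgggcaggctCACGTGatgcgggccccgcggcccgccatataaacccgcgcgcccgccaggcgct
LSS (chr21:46228775-46228954, minus strand): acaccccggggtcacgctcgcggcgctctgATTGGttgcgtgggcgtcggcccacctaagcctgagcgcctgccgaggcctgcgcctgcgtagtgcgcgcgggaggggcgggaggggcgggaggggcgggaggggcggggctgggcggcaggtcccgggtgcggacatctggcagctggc
SREBF1 (chr17:17836987-17837166, minus strand): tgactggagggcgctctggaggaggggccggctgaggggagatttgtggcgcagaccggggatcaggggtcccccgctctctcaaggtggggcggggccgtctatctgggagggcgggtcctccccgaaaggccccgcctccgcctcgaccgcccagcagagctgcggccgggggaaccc
TM7SF2 (chr11:65111692-65111871, plus strand): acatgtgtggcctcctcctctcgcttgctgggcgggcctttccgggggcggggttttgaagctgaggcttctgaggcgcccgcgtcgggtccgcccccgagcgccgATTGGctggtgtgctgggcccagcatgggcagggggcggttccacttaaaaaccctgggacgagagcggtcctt

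The search covered 250 bases upstream on both strands, and 26 of the 30 genes had a promoter in the table. CCAAT was found in 16 of the 26 genes (61.5%) and in 32% of 35116 promoters of the same length. TCACNCCAC was found in 1 of the 26, SREBF2, and in 0.883% of all promoters, and CACGTG in INSIG1, SC5D and SCAP, against 6.34% of all. The heat shock element (inverted repeats of GAA) matched none of the 26 and 0.441% of all promoters. SREBF1 held none of the 4 motifs in this window. Only the outermost start of each gene was searched, so starts further inside a gene, SREBF1 included, were not covered. Only exact matches to the letters given were counted, so a gene without a match may still hold a site that departs from them. CCAAT stood upstream of genes that rose, such as HMGCS1 and STARD4, and of genes that fell, such as LSS and TM7SF2.

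At 24 h, carfilzomib was the inhibitor, and the combination was again read first against DMSO. Of the 30 genes, 1 was higher and 9 lower in the combination, while 13% of all 16183 genes tested were higher and 14.3% lower. The median log2 fold change was -0.09 over the 30 genes and 0.0036 over all genes. The lower genes were LSS, PMVK, ACAT2, EBP and 5 of the 7 fatty acid genes, and no SREBP regulator passed the test.

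LSS was lower in all 3 treated groups at 24 h, at 161, 149 and 162 CPM in the combination, 177, 195 and 183 CPM with carfilzomib, 179, 171 and 169 CPM with SHP1705 and 248, 242 and 221 CPM in DMSO. None of the 9 treated libraries reached the DMSO range. The log2 fold change against DMSO was -0.59 ± 0.05 (SE) for the combination, -0.35 ± 0.05 for carfilzomib and -0.45 ± 0.05 for SHP1705 (edgeR quasi-likelihood, adjusted p of 1.56e-08, 3.83e-05 and 7.5e-06), 3 values that share the DMSO libraries. The combination was also below carfilzomib alone (-0.24 ± 0.05, adjusted p = 0.00651 by edgeR, 0.0546 without combination replicate 2). The interaction for LSS was 0.22 ± 0.08 and did not pass the test (adjusted p = 0.182).

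TM7SF2, which encodes a sterol reductase acting after LSS, was at 15.4, 16.1 and 16.3 CPM in the combination, 10.2, 9.85 and 9.50 CPM with carfilzomib, 19.4, 17.6 and 17.5 CPM with SHP1705 and 16.2, 17.9 and 20.4 CPM in DMSO. The 3 carfilzomib libraries were the lowest of the set, and the combination libraries overlapped with DMSO. Carfilzomib alone gave a log2 fold change of -0.88 ± 0.10 against DMSO, and the combination gave -0.18 ± 0.10 (adjusted p = 0.169). In the combination TM7SF2 was 1.62-fold higher than with carfilzomib alone (0.70 ± 0.10, adjusted p = 7.42e-05 by edgeR). Its interaction was 0.69 ± 0.14 with an adjusted p of 0.0244 by edgeR, and the call was lost with DESeq2 and when any of 7 libraries was left out (adjusted p of 0.0592 to 0.0837). Those were DMSO replicates 2 and 3, SHP1705 replicates 2 and 3 and all 3 combination replicates.

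The fatty acid enzymes at 24 h were lower or not called in both groups with carfilzomib. FADS2 was at 64.1, 63.8 and 68.4 CPM in the combination, 74.1, 69.7 and 69.4 CPM with carfilzomib, 90.9, 90.1 and 86.7 CPM with SHP1705 and 93.5, 94.1 and 96.1 CPM in DMSO. Both groups with carfilzomib lay below both groups without it, at -0.53 ± 0.05 for the combination and -0.41 ± 0.05 for carfilzomib against DMSO. FADS1 followed at -0.44 ± 0.06 and -0.27 ± 0.06, FASN at -0.28 ± 0.07 and -0.23 ± 0.07, and SCD at -0.17 ± 0.05 and -0.26 ± 0.05, in the same order of groups. FASN lost its carfilzomib call without DMSO replicate 1 or 2 or carfilzomib replicate 3 and in a fit of those groups alone (adjusted p of 0.0541 to 0.0730), and SCD lost its combination call without DMSO replicate 1 or 3 or combination replicate 2 (0.0586 to 0.123). ACLY and ACACA were not called in any contrast of this set.

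ELOVL6 was the fatty acid gene that edgeR called with SHP1705 alone at 24 h. It was at 76.2, 75.6 and 75.1 CPM in the combination, 83.4, 82.1 and 90.1 CPM with carfilzomib, 105, 109 and 114 CPM with SHP1705 and 85.4, 85.6 and 91.2 CPM in DMSO. The SHP1705 libraries were the highest of the set and the combination libraries the lowest. Against DMSO the log2 fold change was -0.21 ± 0.05 for the combination and 0.32 ± 0.05 for SHP1705 (adjusted p = 0.000544, edgeR), and the interaction was -0.49 ± 0.08 (adjusted p = 0.00249). The combination against carfilzomib, at -0.17 ± 0.05, passed the test narrowly. Its call was lost with relative log expression factors, without the filter, with only the groups compared and without carfilzomib replicate 1 or 3 or any combination replicate (adjusted p of 0.0521 to 0.145, edgeR).

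**Figure D2:**
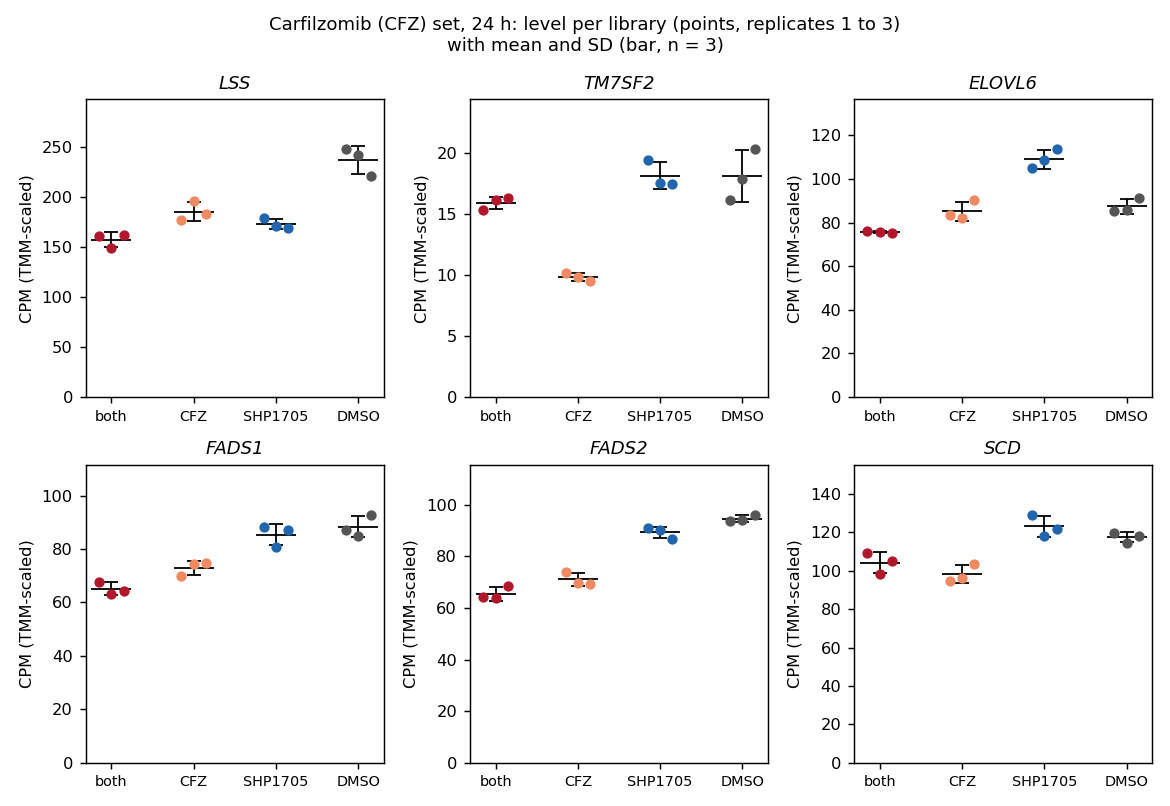
Levels of 6 genes in the carfilzomib set at 24 h, in CPM on the vertical axis, with 1 point per library, the mean as a bar and the SD as whiskers (n = 3), for the combination ("both"), carfilzomib ("CFZ"), SHP1705 and DMSO. LSS is below DMSO in all 3 treated groups, TM7SF2 is lowest with carfilzomib alone at 9.50 to 10.2 CPM, and ELOVL6 is highest with SHP1705 at 105 to 114 CPM.

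Carfilzomib alone for 24 h left 0 of the 30 genes higher and 10 lower than DMSO, against 10.1% and 11.4% of all genes. By role, 2 of 7 mevalonate genes, 2 of 11 sterol genes, 2 of 4 regulators and 4 of 7 fatty acid genes fell. Besides those above, PMVK fell by 0.30, FDPS by 0.24, SREBF1 by 0.24 and SCAP by 0.21 on the log2 scale. The FDPS call was lost without the filter, with only the groups compared and without any DMSO replicate or carfilzomib replicate 1 or 2 (adjusted p of 0.0523 to 0.212, edgeR), that of PMVK without DMSO replicate 3 or carfilzomib replicate 1 (0.0588 and 0.0608) and that of SREBF1 without carfilzomib replicate 3 (0.0506). HMGCS1 was at 21.1, 22.4 and 21.4 CPM in the combination, 17.7, 20.03 and 21.98 CPM with carfilzomib, 20.1, 23.9 and 19.9 CPM with SHP1705 and 18.2, 20.1 and 19.8 CPM in DMSO. Its carfilzomib and SHP1705 libraries overlapped with DMSO, and no contrast of this set called it (combination against DMSO 0.16 ± 0.09, adjusted p = 0.229). STARD4 was not called either, at 0.11 ± 0.17 in the combination, nor was MVK at 0.05 ± 0.08.

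In the combination at 24 h, ACAT2 fell by 0.27, PMVK by 0.28 and EBP by 0.21 against DMSO, and NSDHL rose by 0.22 ± 0.07. ACAT2 lost its call without combination replicate 2 (adjusted p = 0.0623), EBP without DMSO replicate 1 (0.0586), PMVK without DMSO replicate 3 or combination replicate 2 (0.0642 and 0.0647) and NSDHL without DMSO replicate 2 or 3 or combination replicate 3 (0.0584 to 0.181). Against carfilzomib alone, the combination had 1 gene of 30 higher, TM7SF2, and 3 lower, LSS, EBP and ELOVL6, where 4.36% and 4.67% of all genes were called. EBP was at -0.19 ± 0.05 in this contrast, and its call was lost without the filter, with only the groups compared and without carfilzomib replicate 2 or 3 or any combination replicate (adjusted p of 0.0514 to 0.136, edgeR). SHP1705 alone gave 1 higher gene, ELOVL6, and 1 lower gene, LSS, against 1.95% and 2.51% of all genes, and the interaction called TM7SF2 and ELOVL6, where 0.21% of all genes were positive and 0.272% negative. The 722 genes called for SHP1705 became 419 to 469 without SHP1705 replicate 2 or 3 or DMSO replicate 1 or 2. The 78 genes called for the interaction became 20 to 29 without any combination replicate, SHP1705 replicate 2 or 3 or any DMSO replicate, 477 without carfilzomib replicate 2 and 170 without SHP1705 replicate 1. For the combination against carfilzomib, 1460 genes became 877 without combination replicate 2 and 869 without combination replicate 3.

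**Figure D3:**
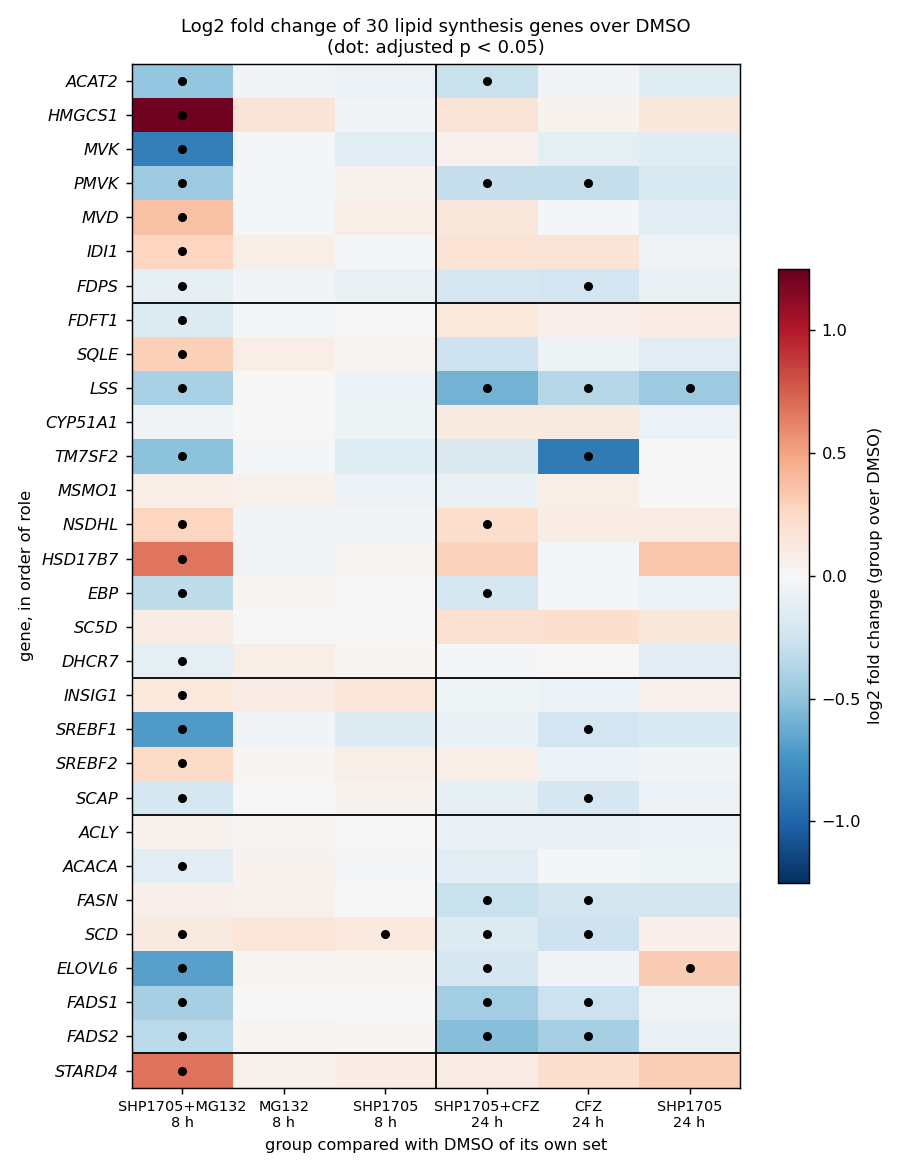
Log2 fold change over DMSO of the 30 genes (rows, in order of role) in 3 treated groups of the MG132 set at 8 h and 3 of the carfilzomib set at 24 h (columns), where red is higher and blue lower than DMSO and a dot marks an adjusted p under 0.05 by edgeR. The combination with MG132 holds 25 dots in both colours, the combination with carfilzomib 10 and carfilzomib alone 10, nearly all of them blue.

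Other lipid genes are again to be read against all genes, of which 13% were higher and 14.3% lower. Here, 5 of the 20 further SREBP-linked genes rose and 4 fell in the 24 h combination against DMSO, with ME1 at 1.16 ± 0.09, NPC1 at 0.32 ± 0.05 and TMEM97, a sterol-binding membrane protein, at -0.53 ± 0.06. LXR targets and export genes rose in 4 of 10 cases and none fell, among them ABCA1 (0.45 ± 0.06) and PLTP, which transfers phospholipids (0.63 ± 0.16). Of 11 oxidation genes 4 rose and none fell, with the acyl-CoA dehydrogenase ACADVL at 0.38 ± 0.05, and of 17 storage and elongation genes 2 rose and 2 fell, with ELOVL5 at -0.31 ± 0.04. With SHP1705 alone, TMEM97 was at -0.45 ± 0.06, INSIG2, the second INSIG gene, at 0.48 ± 0.08 and ABCA1 at 0.24 ± 0.06, all called. At 8 h in the MG132 set, SHP1705 alone also called INSIG2 (0.21 ± 0.06) and TMEM97 (-0.14 ± 0.04). PER3 fell by 4.63 in the combination and 4.34 with SHP1705 alone at 24 h, and HSPA1A rose by 0.81 ± 0.05 in the combination and 0.67 ± 0.05 with carfilzomib.

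**Figure D4:**
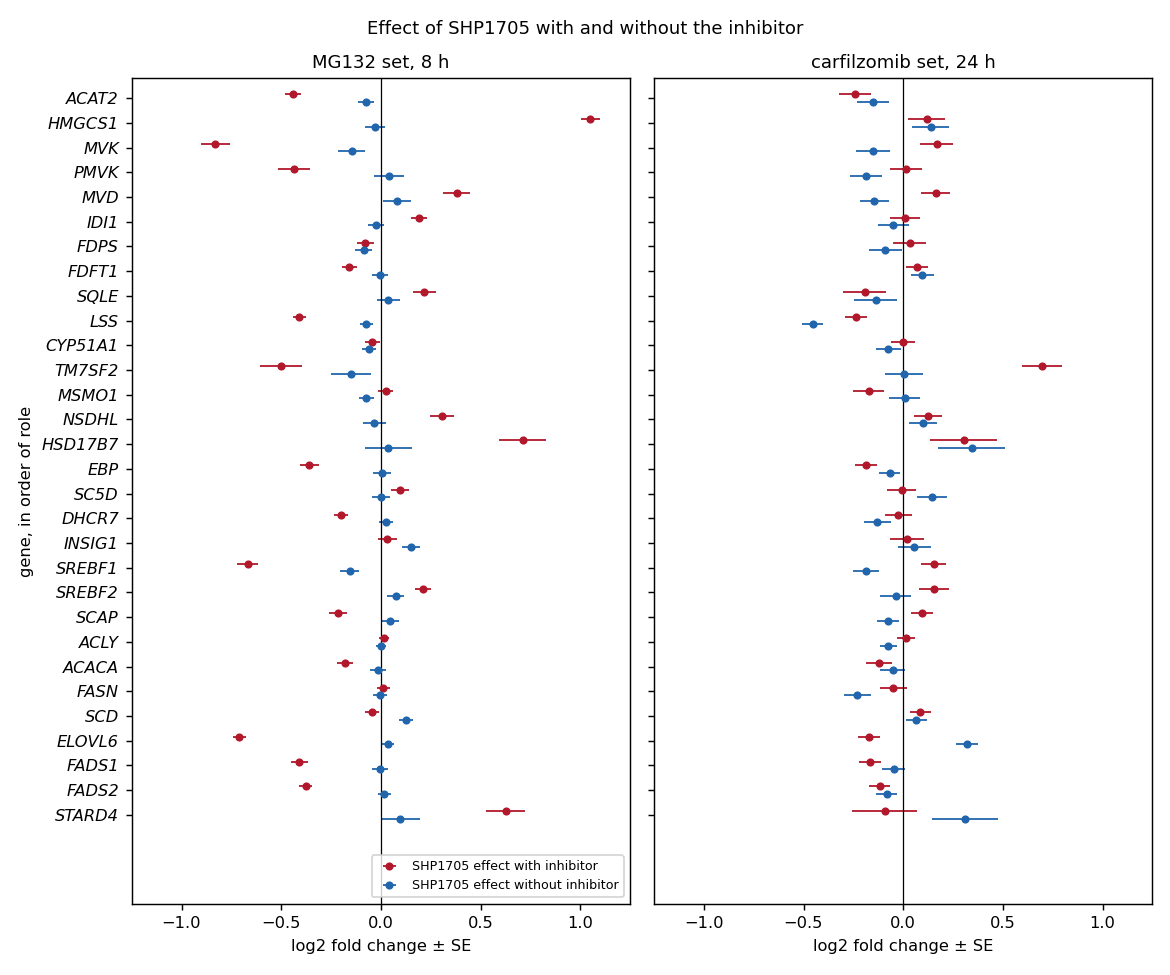
Log2 fold change ± SE (horizontal axis) of each of the 30 genes for SHP1705 in the presence of the inhibitor (combination over inhibitor, red) and without it (SHP1705 over DMSO, blue), in the MG132 set at 8 h (left) and the carfilzomib set at 24 h (right). Red points spread from -0.83 for MVK to 1.05 for HMGCS1 on the left, and on the right TM7SF2 stands out in red at 0.70 and LSS in blue at -0.45.

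The carfilzomib set at 8 h has to be read per library. HSPA1A was at 892, 12020 and 15052 CPM in the libraries labelled combination 1, 2 and 3 and at 792, 726 and 896 CPM in those labelled carfilzomib. It was at 19856, 705 and 693 CPM in those labelled SHP1705 and at 14559, 23605 and 23242 CPM in those labelled DMSO. High values thus stood in all 3 libraries labelled DMSO, in SHP1705 replicate 1 and in combination replicates 2 and 3, and in none labelled carfilzomib. PER3, which SHP1705 lowered in the other sets, was at 1.92, 7.69 and 8.20 CPM in the libraries labelled combination, 6.78, 1.26 and 1.69 CPM in those labelled carfilzomib, 2.25, 9.62 and 7.91 CPM in those labelled SHP1705 and 8.19, 2.06 and 1.55 CPM in those labelled DMSO. Low PER3 therefore occurred under every label. High HSPA1A went with low PER3 in DMSO 2 and 3 and SHP1705 1, and with high PER3 in DMSO 1 and combination 2 and 3. Low HSPA1A went with low PER3 in combination 1 and carfilzomib 2 and 3, and with high PER3 in carfilzomib 1 and SHP1705 2 and 3. Every label thus mixed these states, and whether columns were mislabelled was not tested.

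HMGCS1 in these libraries was at 24.6, 41.4 and 42.6 CPM in combination 1, 2 and 3, 19.5, 23.5 and 25.5 CPM in carfilzomib, 50.2, 21.9 and 20.2 CPM in SHP1705 and 36.01, 48.0 and 49.2 CPM in DMSO. STARD4 was at 6.36, 9.72 and 10.3 CPM in the libraries labelled combination, 5.80, 6.91 and 7.01 CPM in carfilzomib, 15.8, 7.56 and 7.07 CPM in SHP1705 and 9.61, 13.9 and 14.2 CPM in DMSO. For both genes the libraries labelled DMSO, SHP1705 replicate 1 and combination replicates 2 and 3 held the high values. ELOVL6 was at 80.6, 59.1 and 54.1 CPM in combination, 67.0, 83.8 and 90.7 CPM in carfilzomib, 47.0, 75.2 and 77.9 CPM in SHP1705 and 54.7, 40.7 and 44.3 CPM in DMSO. SREBF1 was at 37.2, 26.9 and 28.2 CPM in combination, 34.6, 37.3 and 34.6 CPM in carfilzomib, 18.5, 33.8 and 29.6 CPM in SHP1705 and 25.0, 19.8 and 17.5 CPM in DMSO. These 2 genes were low in the same libraries in which the first 2 were high.

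As labelled, the libraries with carfilzomib against those with DMSO at 8 h had 9 called genes of 30, 5 higher and 4 lower, where 23% of all 15577 genes were called by edgeR. HMGCS1 was at -0.96 ± 0.32 and STARD4 at -0.94 ± 0.30 (SE, log2), and IDI1 (-0.65 ± 0.20) and SC5D (-0.47 ± 0.16) were lower too. ELOVL6 (0.79 ± 0.21), SREBF1 (0.78 ± 0.21), MVK (0.62 ± 0.20), FADS2 (0.53 ± 0.16) and FADS1 (0.40 ± 0.14) were higher. The adjusted p of the 9 genes ran from 0.0400 to 0.0499, and all 9 calls were lost when DMSO replicate 2 or 3 or any carfilzomib replicate was left out. In each of those 5 fits the count over all genes was 0 as well, against 3587 with all libraries. No gene was called by edgeR for SHP1705 against DMSO, the combination against DMSO, the combination against carfilzomib or the interaction, and 0% of all genes were called in these 4 contrasts. Among the 30, an unadjusted p under 0.05 was reached by 2 genes for SHP1705 against DMSO and 5 for the combination against DMSO. It was reached by 1 for the combination against carfilzomib and 7 for the interaction. These counts stand without the share of all genes and are not read as results. DESeq2 called 0 of the 30 in each of the 4 contrasts. A further fit left out SHP1705 replicate 1 and combination replicate 1, whose HSPA1A departed from the other libraries of their label. The libraries labelled DMSO were kept although their HSPA1A was high. The choice rested on HSPA1A, so the libraries kept were low in it for SHP1705 and carfilzomib and high for the combination and DMSO. All contrasts of this fit but the combination against DMSO thus set high against low HSPA1A, and their counts are not read as drug effects. Of the 30, 14 were then called for SHP1705 and 15 for carfilzomib against DMSO, beside 5711 and 7452 of all genes. The combination had 0 of the 30 against DMSO and 6 against carfilzomib, and the interaction had 15. Over all genes the counts were 4284 for the combination against carfilzomib and 7507 for the interaction, where 15577 genes were tested with all libraries. Between 24 h and 8 h, the effect as labelled differed in 18 genes for carfilzomib, 12 for the combination and 1 for SHP1705, against 40.1%, 20.4% and 2.94% of 17389 genes, and the label doubt at 8 h carries into each of these. For the combination, 3542 genes became 2126 without combination replicate 1 and 2231 without DMSO replicate 3 at 8 h, and for SHP1705, 512 genes became 76 to 4825 when single libraries of either time were left out.

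**Figure D5:**
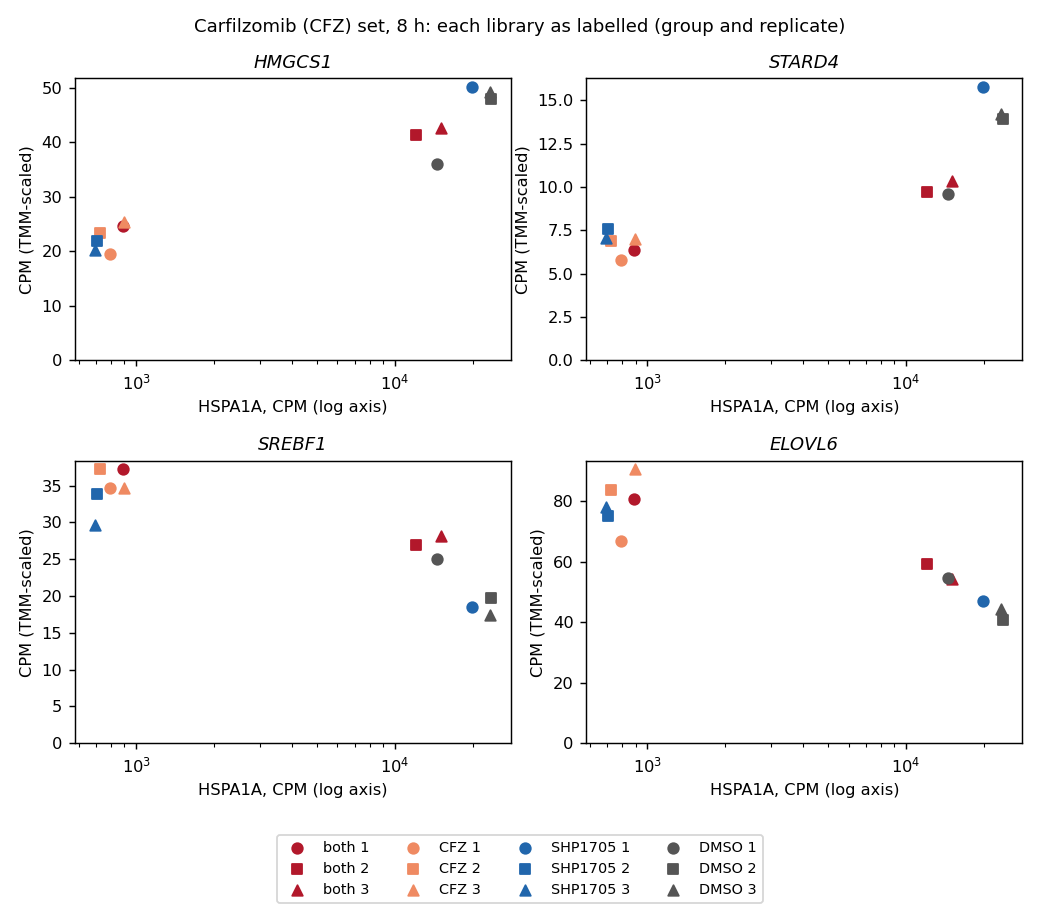
Levels of 4 genes in each library of the carfilzomib set at 8 h, in CPM (vertical axis), against HSPA1A in CPM (horizontal log axis), with colours for the labelled group ("both" is the combination, "CFZ" carfilzomib) and shapes for the replicate. The 6 libraries with HSPA1A at 12020 CPM or more, among them all 3 labelled DMSO, hold the high HMGCS1 and STARD4 values and the low SREBF1 and ELOVL6 values.

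Several of these genes share exonic bases with other annotated genes in GENCODE 29, and the strand setting of the counting is not known. SOD2 covers 26.5% of the exonic bases of ACAT2 on the opposite strand and SOD2-OT1 33.9%, and AC000120.2 covers 79.4% of those of CYP51A1 on the same strand, where no strand setting would separate the reads. Antisense genes cover 18.6% of FDPS, 15% of HMGCS1 and 14.8% of IDI1, and other overlaps cover 6.92% of SREBF1, 6.19% of LSS, 4.79% of FADS1 and 4.72% of MVK. FDPS, CYP51A1, HSD17B7, SCD and FADS2 also have named pseudogenes, with which their reads may have been shared, so their values are uncertain.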

How the data were processed

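PolyA RNA-seq of 36 libraries was deposited as 3 tables of raw counts per gene, 1 for each set of 12 libraries, and the counts are whole numbers that the authors had not normalized. Per the submitters' processing notes, Trimmomatic, FastQC, HISAT2 and featureCounts were used on hg38, while the sources used here give neither versions nor the annotation or strand setting. Groups came from the sample labels, and 0 columns were left unused.

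Each table was fitted with all 12 libraries in 4 groups, with filterByExpr, TMM factors and the quasi-likelihood F-test of edgeR 4.0.16 (limma 3.58.1, R 4.3.3). The Benjamini-Hochberg adjustment ran over all genes tested, and a call is an adjusted p under 0.05. Log2 fold changes carry a prior count of 0.125, and levels are CPM on TMM-scaled library sizes. Differences between 24 h and 8 h came from 1 fit of 36 libraries in 12 groups. Depth was 34200000 to 39300000, 17800000 to 27700000 and 18900000 to 34000000 counts per library, and the coefficient of variation within groups was 0.0455, 0.172 and 0.0672, in the order MG132, carfilzomib at 8 h and at 24 h.

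All 30 genes may be named, with up to 5 called genes of each other lipid list by smallest p. The members and lists were chosen with earlier results of these data known. Other settings tried were DESeq2 1.42.0, a fit without the filter, relative log expression factors, a replicate block, a fit of the compared groups alone and the removal of single libraries. Fits without libraries in doubt were added after the data were seen. The method was tested on simulated data. No libraries of a group were identical. Sequences and promoters came from RefSeq on GRCh38.p14, overlaps from GENCODE 29, and figures from matplotlib in Python 3.11.15.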

Additional observations from a re-analysis of the deposited data

Results flagged for a closer look

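The effect of a treatment over DMSO was compared between the carfilzomib sets at 24 h and 8 h, by edgeR's quasi-likelihood test of the difference (24 h minus 8 h, log2). HSPA1A and PER3 in the 8 h set go against the labels of several libraries, so each difference below is one between libraries as labelled, and its cause was not tested. The times also stand in separate tables with separate DMSO libraries.

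For SHP1705, LSS differed by -0.72, and its call was lost with a replicate block and without DMSO replicate 2 or 3 or SHP1705 replicate 2 at 8 h (adjusted p of 0.0509 to 0.0614, edgeR).

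For carfilzomib, the differences in the mevalonate genes were 1.01 for HMGCS1, 0.81 for IDI1, -0.34 for ACAT2, -0.35 for FDPS, -0.74 for MVK and -0.75 for PMVK. In the sterol genes they were 0.68 for SC5D, 0.37 for NSDHL, -0.32 for EBP, -0.64 for LSS and -1.28 for TM7SF2. SREBF1 differed by -1.02 and SCAP by -0.30. The fatty acid genes were at -0.55 for SCD, -0.67 for FADS1, -0.83 for ELOVL6 and -0.94 for FADS2, and STARD4 was at 1.15. The calls of ACAT2, SCAP, FDPS, EBP and NSDHL were lost under 12, 11, 8, 5 and 5 alternatives.

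For the combination, the differences were 0.62 for IDI1, 0.55 for SC5D, 0.40 for NSDHL, -0.39 for EBP, -0.51 for ACAT2, -0.65 for SREBF1 and -0.86 for LSS. In the fatty acid genes they were -0.41 for FASN, -0.66 for FADS1, -0.68 for ELOVL6, -0.68 for SCD and -0.85 for FADS2. The call of NSDHL was lost under 9 alternatives, those of EBP and IDI1 under 3, those of FASN and SREBF1 under 2 and that of ELOVL6 under 1.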

How the results depend on the processing

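No direction of a called gene reversed under any alternative run. Counts of called genes among the 30 that moved by over 1.5 times were as follows. In the MG132 set, SHP1705 against DMSO (1 gene) gave 2 with relative log expression factors, 3 without the filter, 2 with DESeq2, 2 with only the groups compared, 0 without the 4 libraries outside the combination holding POSTN, and 0 to 2 when single libraries were left out. For MG132 against DMSO (0), it was 1 without the filter, 1 with DESeq2 and 1 with only the groups compared. In the carfilzomib set at 8 h, SHP1705 against DMSO (0) gave 2 without the filter, 14 without SHP1705 replicate 1 and combination replicate 1 (called the 2 libraries here, other libraries also being in doubt) and 0 to 9 leaving out single libraries, with 9 without SHP1705 replicate 1. Carfilzomib against DMSO (9) gave 0 with a replicate block, 15 without the 2 libraries and 0 to 9 leaving out single ones, with 9 only without DMSO replicate 1. The combination gave 2 against DMSO without the filter, and against carfilzomib 1 without the filter and 6 without the 2 libraries, where the counts had been 0. The interaction (0) gave 3 without the filter, 15 without the 2 libraries and 0 to 11 leaving out single ones, with 11 without SHP1705 replicate 1 and 3 without combination replicate 1. At 24 h, SHP1705 against DMSO (2) gave 4 with only the groups compared. The combination against carfilzomib (4) gave 2 without the filter, 2 with only the groups compared and 1 to 4 leaving out single libraries, and the interaction (2) gave 1 to 3. For the difference between 24 h and 8 h, SHP1705 (1) gave 3 without the filter, 0 with a replicate block, 3 with DESeq2, 15 without the 2 libraries and 0 to 15 leaving out single ones. At 8 h these gave 15 without SHP1705 replicate 1, 5 without DMSO replicate 1 and 0 without DMSO replicate 2 or 3 or SHP1705 replicate 2. The combination (12) gave 7 to 15, with 7 without combination replicate 1 at 8 h. The cause of these moves was not tested, beyond the fewer libraries in some fits. Replicate numbers did not pair the libraries, with same-number correlations over 0.1 in 3, 2 and 0 of 18 pairs in the MG132 set and the carfilzomib set at 8 h and 24 h, and with the best match on the own number in 7, 1 and 3 of 18 cases. Over all genes, the block moved the count for carfilzomib against DMSO at 8 h from 3587 to 0, the one for MG132 alone from 0 to 3 and the 24 h against 8 h difference for SHP1705 from 512 to 83. Counts over all genes also moved by over 1.5 times under other settings. They were, in the MG132 set, SHP1705 (1249, and 150 without the 4 libraries) and MG132 alone (0, and 303 without the filter and 77 with DESeq2). At 8 h with carfilzomib, SHP1705 (0) gave 1050 without the filter and 5711 without the 2 libraries, and carfilzomib (3587) gave 7452 without the 2 libraries. The combination (0) gave 688 against DMSO and 502 against carfilzomib without the filter, 1 and 1 with DESeq2, and 4284 against carfilzomib without the 2 libraries, and the interaction (0) gave 2337, 384 and 7507. At 24 h the interaction (78) gave 364 without the filter and 363 with DESeq2, and the 24 h against 8 h difference for SHP1705 (512) gave 1675 without the filter, 1257 with DESeq2 and 5638 without the 2 libraries. With only the groups compared, counts were 22 for MG132 alone (0), 6719 for carfilzomib (3587) and 2 for the combination against DMSO (0) at 8 h, and at 24 h 1171 for SHP1705 (722) and 913 for the combination against carfilzomib (1460). Leaving out single libraries moved MG132 alone from 0 to 1 and 67 (MG132 replicates 1 and 2). At 8 h with carfilzomib it moved SHP1705 from 0 to 3662 (SHP1705 replicate 1), the interaction from 0 to 5093 (SHP1705 replicate 1) and 2837 (combination replicate 1), and the combination against carfilzomib from 0 to 2 (carfilzomib replicate 3). The other such moves stand beside their results. Depth limits the genes of few counts, such as HSD17B7 and STARD4. At 8 h with carfilzomib, labelled groups hold libraries that differ in HSPA1A and PER3, and this mixture limits every contrast. Without the 2 libraries, which were picked by HSPA1A, SHP1705 and carfilzomib were left low in it and the combination and DMSO high. The counts of those fits are therefore not read as drug effects.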
